A study of Homo sapiens with 6 samples.

Results

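The genes described here encode aminoacyl-tRNA synthetases, the enzymes that load each amino acid onto its tRNA, together with the scaffold proteins that hold several of these enzymes in a complex. The family has 39 members among the 58302 gene IDs of the count tables. It was taken by gene name, with 23 cytosolic members (symbols ending in 1, FARSA, FARSB, TARS3 and the scaffolds AIMP1, AIMP2 and EEF1E1) and 16 mitochondrial members (symbols ending in 2). The family was proposed with the fold changes of these same libraries in view, so it was chosen by the measured differences between the groups compared here. The counts of members that changed are therefore a description, and nothing is read from them about the family as a whole. All 39 members were found, and 38 received an adjusted p. The exception was SARS2, which is described separately.

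Gene expression had been measured by poly(A)-selected bulk RNA sequencing in A375, a human melanoma cell line bought from a cell bank. One group of 3 libraries came from cells stably carrying an empty vector (EV) and the other group of 3 from cells stably overexpressing HMGB2 (OE), a chromatin protein that bends DNA. The question was which transcripts change when HMGB2 is raised. Both lines were made by lentiviral transduction, and the replicates of a group were cell pellets of 1 line that the study's reporting form calls technical. The study selected its transduced lines with blasticidin or puromycin, without saying which was used here. No other treatment or genotype was stated for either group. P-values measure only the spread between these libraries, and not between independent transductions.

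Protein synthesis needs a charged tRNA for every amino acid, and human cells charge tRNA in the cytosol and, separately, in the mitochondrial matrix. The mitochondrial enzymes are encoded in the nucleus, mostly by separate genes, and are imported. GARS1 and KARS1 serve both compartments from a single gene, and EPRS1 joins the glutamyl and prolyl enzymes in 1 protein. Several cytosolic enzymes (EPRS1, IARS1, LARS1, MARS1, QARS1, RARS1 and KARS1 among those listed) sit in the multi-synthetase complex with the scaffolds AIMP1, AIMP2 and EEF1E1, while others act as free enzymes. Uncharged tRNA activates the kinase GCN2 (EIF2AK4), which raises translation of the transcription factor ATF4. ATF4 in turn induces amino acid transporters, amino acid synthesis enzymes and many cytosolic synthetases.

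Libraries held between 45925053 and 56755212 reads assigned to genes. HMGB2 itself had normalized counts (counts divided by the library's DESeq2 size factor) of 7250, 7729 and 7562 in EV and 15095, 16848 and 14609 in OE, a log2 fold change of 1.05 (SE 0.10, adjusted p = 4.4e-22 by DESeq2). Of the melanocyte lineage markers, MITF (1381 to 1719), S100B (3346 to 3533 in EV and 3554 to 3841 in OE, without overlap) and MCAM (9195 to 13530) were present in all libraries and not called (adjusted p not under 0.05), while the pigment genes MLANA, TYR, DCT and TYRP1 stayed at or below 21.3, and the leukocyte genes PTPRC and CD3E and the liver gene ALB at or below 1.77. SOX10 was listed at 0, and the count column kept 3.37% of the PMEL reads found in the separate strand columns, so neither checks the lineage here. The macrophage gene CD68 stayed at or below 3.54, but the count column kept only 0.299% of its reads, so its absence cannot be read from it. Of the other markers of epithelial, endothelial and stromal cells, KRT14 (421 to 694), EPCAM (212 to 372), PDGFRB (695 to 861) and VWF (38.2 to 67.7) overlapped between groups and were not called. PECAM1 was low but higher in each OE library (47.3 to 55.4) than in each EV library (25.7 to 45.1), with a log2 fold change of 0.48 that was not called. COL1A1 had 1609 to 3120 in EV and 2880 to 3938 in OE, a log2 fold change of 0.52 (adjusted p = 0.208 by DESeq2) that was 0.82 and called without EV replicate 3 (EV3; adjusted p = 5.92e-07 by DESeq2). EV3 stood apart from its group. The basal keratin KRT5 had 5.05 and 11.5 normalized counts in the other EV libraries, 279 in EV3 and between 200 and 289 in OE. KRT5 was not called (log2 fold change 1.32, adjusted p = 0.797 by DESeq2). Without EV3 its log2 fold change was 4.86 (adjusted p = 2.87e-29 by DESeq2). The proteoglycan gene CSPG4 had 73844 and 73004 in the other EV libraries, 42385 in EV3 and between 33872 and 45253 in OE. CSPG4 fell by 0.63 (adjusted p = 0.0446 by DESeq2), and by 0.85 without EV3, where MCAM was also called lower (-0.37, adjusted p = 0.0038 by DESeq2). The CSPG4 call held in 7 of 14 alternatives. It was lost with edgeR (adjusted p = 0.162) and without the independent filter of DESeq2 (0.0775). Leaving out EV replicate 1, EV replicate 2 or any 1 of the OE libraries also lost it (0.0704 to 0.383 by DESeq2). For the 2 compartments and the called members, results are therefore given with and without EV3. Multimapped reads made up 10.6% of reads in OE replicate 3 (OE3) and between 2.58% and 4.89% in the other libraries. The part of these features in the results was not tested.

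Transcripts of many cytosolic synthetases were lower in OE cells, and those of the mitochondrial synthetases lay near their EV level. Genes with an adjusted p under 0.05 (Benjamini-Hochberg, DESeq2 over all genes) count as called, and rose or fell is written of these alone. Of the 23 cytosolic members, 9 fell (WARS1, SARS1, YARS1, MARS1, AARS1, GARS1, IARS1, CARS1 and NARS1) and 0 rose. Of the 15 mitochondrial members tested, 0 fell and 0 rose. Over all 18836 genes tested, 2.64% were called lower and 2.29% higher. Among the 7252 better measured genes, averaging at least 1000 normalized counts as most cytosolic members do, 3.64% were called lower. The choice of members used this contrast, so these shares stand beside the counts and no more is read from them.

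The median log2 fold change was -0.25 over the cytosolic members (from -1.0 to 0.06), 0.00 over the mitochondrial members (from -0.13 to 0.16) and 0.00 over all genes tested. Of the cytosolic members 20 had a negative and 3 a positive fold change, against 9 and 6 of the mitochondrial members. In 15 cytosolic members every OE library lay below every EV library, as it did in 10.7% of all genes tested. Without EV3, 13 cytosolic members were called lower and 0 higher, where 9.46% of the 16062 genes tested in that fit were called lower, and their median was -0.29. In that fit 1 mitochondrial member, IARS2, was called higher and 0 lower, where 8.31% of genes were called higher.

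As a share of all assigned reads, the cytosolic members took 1.05%, 1.02% and 0.883% in EV and 0.747%, 0.729% and 0.648% in OE. The groups did not overlap, and EV3 was the lowest EV library. The mitochondrial members took 0.0873%, 0.086% and 0.0972% in EV and 0.0901%, 0.0929% and 0.0969% in OE, and here the groups overlapped. In bulk RNA, fewer cells with a transcript and less of it per cell cannot be told apart.

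**Figure D1:**
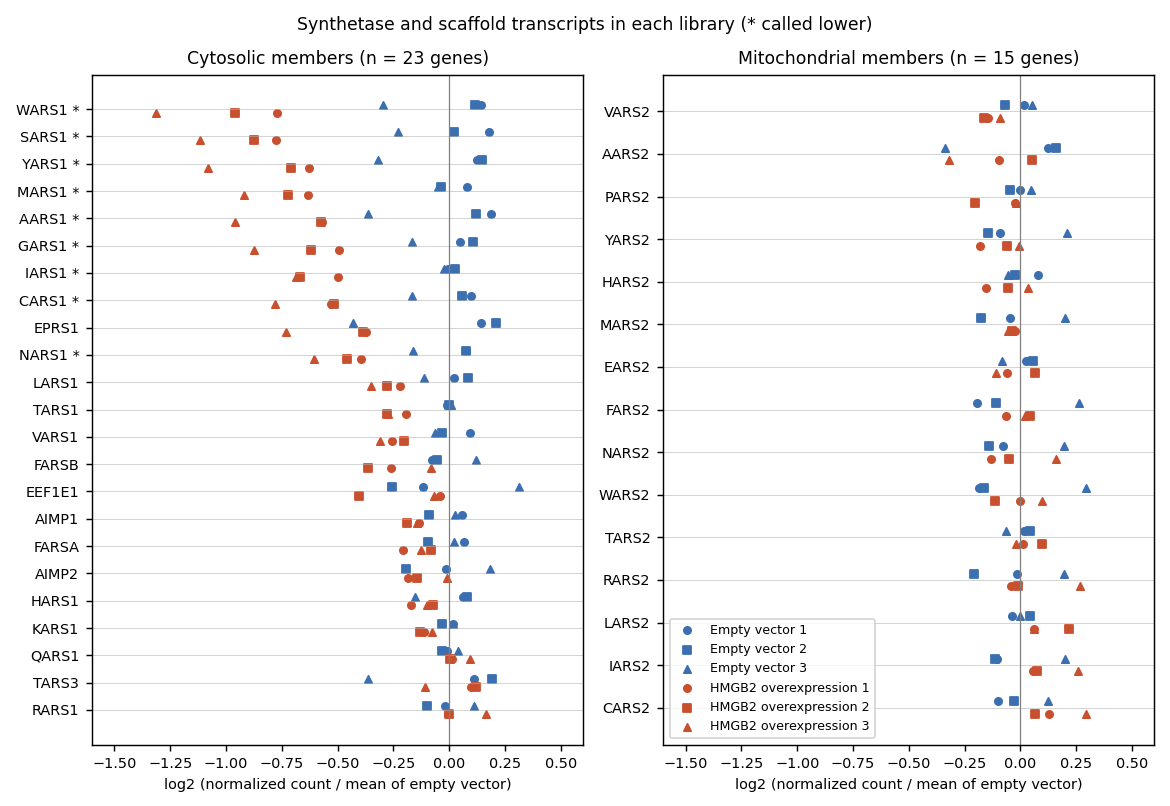
Each member's log2 difference from its EV mean in each library. The called cytosolic members lie below 0 in all OE libraries, with medians of -0.55, -0.67 and -0.92 in OE replicates 1, 2 and 3, while the mitochondrial members scatter around 0 in both groups.

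The largest falls were in enzymes that act outside the multi-synthetase complex. WARS1, which charges tryptophan, had normalized counts of 28859, 28342 and 21324 in EV and 15348, 13473 and 10515 in OE. Every OE library lay below every EV library, and 50.1% of the EV level was left. The log2 fold change was -1.0 (SE 0.17, adjusted p = 7.36e-07 by DESeq2), and -1.12 without EV3. SARS1, which charges serine, had 36509, 32738 and 27486 in EV and 18814, 17579 and 14886 in OE, with no overlap and 53.0% left. It fell by 0.92 on the log2 scale (SE 0.14, adjusted p = 2.86e-08 by DESeq2). YARS1, the tyrosine enzyme, had 33642, 34264 and 24796 in EV and 20005, 18925 and 14607 in OE. The groups again did not overlap, and the log2 fold change was -0.79 (SE 0.17, adjusted p = 0.000147 by DESeq2).

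AARS1, the alanine enzyme, was the most counted member, with 61358, 58474 and 41815 in EV and 36321, 36226 and 27706 in OE. EV3 lay nearer to the OE libraries than to the other EV libraries, although the groups did not overlap. AARS1 fell by 0.69 on the log2 scale (SE 0.17, adjusted p = 0.00256 by DESeq2), and by 0.84 without EV3, but the call was lost with edgeR (adjusted p = 0.0639) and without EV replicate 1 (adjusted p = 0.0715 by DESeq2). GARS1, which charges glycine in both compartments, had 29587, 30766 and 25464 in EV and 20307, 18635 and 15578 in OE, a non-overlapping fall of 0.65 (SE 0.13, adjusted p = 9.81e-05 by DESeq2). CARS1, the cysteine enzyme, had 8909, 8647 and 7403 in EV and 5759, 5813 and 4839 in OE, and fell by 0.60 (SE 0.13, adjusted p = 0.000117 by DESeq2). The groups did not overlap. The count column for either strand kept 60.5% of the reads that the separate strand columns assigned to CARS1, since reads shared with genes on the opposite strand are set aside. NARS1, the asparagine enzyme, showed the smallest fall among called members, with 21298, 21291 and 18097 in EV and 15405, 14743 and 13279 in OE. Its log2 fold change was -0.48 (SE 0.12, adjusted p = 0.0015 by DESeq2), and -0.56 without EV3. The NARS1 call was lost without EV replicate 1 (adjusted p = 0.0766), EV replicate 2 (0.0532) or OE3 (0.0656).

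Of the 7 enzymes of the multi-synthetase complex, 2 fell. MARS1, which charges methionine to initiator and elongator tRNA, had 41281, 38021 and 37706 in EV and 25149, 23641 and 20632 in OE. No library of one group reached the other, and EV3 lay close to the other EV libraries. The log2 fold change was -0.75 (SE 0.11, adjusted p = 4.61e-09 by DESeq2). IARS1, the isoleucine enzyme, had 42933, 43876 and 42315 in EV and 30470, 27120 and 26718 in OE. It fell by 0.61 (SE 0.10, adjusted p = 4.62e-08 by DESeq2) with tight replicates in both groups, and by 0.63 without EV3.

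The other 5 enzymes of the complex ranged from lower values that missed the threshold to values level with EV. EPRS1 had 32840, 34445 and 22069 in EV and 22971, 22799 and 17947 in OE. EV3 lay below OE replicates 1 and 2, so the groups overlapped, and the log2 fold change of -0.49 (SE 0.18) did not pass (adjusted p = 0.0999 by DESeq2). Without EV3 it was -0.66 (adjusted p = 8.77e-08 by DESeq2). LARS1, the leucine enzyme, had 27393, 28589 and 24907 in EV and 23157, 22241 and 21135 in OE. The groups did not overlap, with a log2 fold change of -0.28 (SE 0.10, adjusted p = 0.0849 by DESeq2), and -0.34 without EV3 (adjusted p = 0.000936 by DESeq2). KARS1, the lysine enzyme of both compartments, had 25352, 24516 and 25400 in EV and 23229, 22907 and 23747 in OE, a non-overlapping log2 fold change of -0.11 (adjusted p = 0.644 by DESeq2). Of QARS1, the glutamine enzyme, there were 19283, 19002 and 19935 in EV and 19601, 19476 and 20707 in OE, and of RARS1, the arginine enzyme, 16263, 15404 and 17835 in EV and 16462, 16498 and 18469 in OE. Both overlapped between groups, with log2 fold changes of 0.04 (SE 0.09) and 0.06 (SE 0.11). Enzymes that share a complex thus had log2 fold changes from -0.75 to 0.06.

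The 3 scaffold proteins of the complex gave 0 calls. AIMP1 had a log2 fold change of -0.15 (SE 0.10), AIMP2 of -0.11 (SE 0.13) and EEF1E1 of -0.16 (SE 0.20). AIMP1 ranged from 1858 to 2054 in EV and from 1735 to 1800 in OE, without overlap, while AIMP2 and EEF1E1 overlapped. The count column kept 75.0% of AIMP1 and 61.5% of AIMP2 reads.

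Among the remaining cytosolic enzymes, TARS1, the threonine enzyme, had 28016, 28198 and 28362 in EV and 24671, 23233 and 23279 in OE. The groups lay apart with little spread within either, yet the log2 fold change of -0.25 (SE 0.08) missed the threshold (adjusted p = 0.0589 by DESeq2). It was -0.24 without EV3, where it passed (adjusted p = 0.0176 by DESeq2). VARS1, the valine enzyme, had a like value of -0.25 (SE 0.10, adjusted p = 0.11 by DESeq2), and -0.29 without EV3 (adjusted p = 0.00814 by DESeq2). The subunits of the phenylalanine enzyme, FARSA and FARSB, had -0.14 (SE 0.10) and -0.23 (SE 0.12), and the histidine enzyme HARS1 had -0.11 (SE 0.11). TARS3, a weakly expressed second threonine enzyme, had 266, 281 and 191 in EV and 263, 267 and 228 in OE, which overlapped, with a log2 fold change of 0.04 (SE 0.19).

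Synthetases belong to 2 structural classes that evolved separately, and calls fell in both. Of the cytosolic class I enzymes 5 of 9 fell, with a median log2 fold change of -0.60, and of the class II enzymes 4 of 10, with a median of -0.24. By place of action, 7 of the 13 cytosolic enzymes outside the complex fell (median -0.48), 2 of 7 enzymes in the complex (median -0.28) and 0 of 3 scaffolds (median -0.15). EPRS1, which joins an enzyme of each class, was left out of the class split. Over all genes tested 2.64% were called lower. The members were chosen by this contrast, so no more is read from these counts. None of these differences between subgroups was tested.

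The libraries numbered 3 were the lowest of their group in each of the 9 called members, in EV and in OE. Over all genes tested EV3 was the lowest EV library in 40.9% and OE3 the lowest OE library in 39.3%. Among the 14 other cytosolic members they were lowest in 5 and 4. The 9 called members together took 0.607%, 0.59% and 0.481% of assigned reads in EV and 0.372%, 0.352% and 0.288% in OE, so the gap between groups was also present within the libraries numbered 1 and 2 and within those numbered 3. Comparing libraries 1 and 2 alone, WARS1 had a log2 fold change of -0.99, SARS1 of -0.93 and MARS1 of -0.70. Without EV3 the log2 fold change was -1.02 for SARS1, -0.93 for YARS1, -0.78 for MARS1, -0.73 for GARS1 and -0.68 for CARS1.

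None of the mitochondrial members tested passed the threshold. The largest positive value belonged to CARS2, the mitochondrial cysteine enzyme, with 4018, 4214 and 4686 normalized counts in EV and 4703, 4500 and 5276 in OE. The groups overlapped, and the log2 fold change was 0.16 (SE 0.12, adjusted p = 0.59 by DESeq2). IARS2, the isoleucine enzyme, had 14863, 14775 and 18357 in EV and 16642, 16842 and 19143 in OE. EV3 lay above 2 OE libraries, giving 0.13 (SE 0.13, adjusted p = 0.747 by DESeq2) with EV3 and 0.24 (adjusted p = 0.0406 by DESeq2) without it. LARS2, the leucine enzyme, was the mitochondrial member whose OE libraries all lay above all EV libraries, with 1802, 1905 and 1849 in EV and 1929, 2152 and 1932 in OE. Such an order was found in 11.1% of all genes tested, and the log2 fold change of 0.11 (SE 0.10) was not called.

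The largest negative value among them belonged to VARS2, the valine enzyme, with 2300, 2164 and 2351 in EV and 2056, 2028 and 2134 in OE. The groups did not overlap, but the difference of -0.13 (SE 0.10, adjusted p = 0.617 by DESeq2) was not called. Of the 50-base words of VARS2, 58.7% also occur in other annotated genes, so its count is uncertain. AARS2, the alanine enzyme, had 1173, 1202 and 851 in EV and 1007, 1114 and 862 in OE, with EV3 and OE3 as the low libraries, and PARS2, the proline enzyme, had 999, 969 and 1036 in EV and 984, 870 and 986 in OE. Both overlapped between groups. The 9 other mitochondrial members tested had log2 fold changes between -0.08 and 0.08, among them WARS2, FARS2 and NARS2 at 0.00.

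SARS2, the mitochondrial serine enzyme, was nearly lost in the column used for all other members. It had raw counts of 2, 3 and 5 in EV and 1, 2 and 5 in OE, which was 1.19% of what the separate strand columns assigned to it. In the sum of those columns it had 202, 290 and 234 reads in EV and 262, 269 and 252 in OE. The groups overlapped, with a log2 fold change of 0.14 (adjusted p = 0.83 by DESeq2). A further gene is annotated over SARS2 on the same strand, and 41.0% of the SARS2 50-base words occur in other genes. The counts of SARS2 in the strand columns are therefore uncertain too. Why the column for either strand lost most of these reads was not tested.

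Each amino acid with an enzyme gene in both compartments gives a pair that shares its substrate but not its site of action. In all 15 pairs with a measured mitochondrial partner the fold change of the cytosolic gene was below that of the mitochondrial gene, with a median difference of -0.46 on the log2 scale. EPRS1 entered 2 of these pairs, with EARS2 and with PARS2. The members were chosen with these fold changes in view, so no more is read from the count of pairs. The tryptophan pair differed most, by -0.99. Its log2 ratio of cytosolic to mitochondrial normalized counts was 4.30, 4.25 and 3.38 in EV and 3.20, 3.12 and 2.56 in OE. The groups did not overlap, although EV3 lay close to the OE range. The cysteine pair differed by -0.77 and the isoleucine pair by -0.75. For isoleucine the log2 ratio was 1.53, 1.57 and 1.20 in EV and 0.87, 0.69 and 0.48 in OE, again without overlap. The arginine pair differed least, by -0.02, and the histidine pair by -0.06. In both pairs the difference was smaller than the standard error of either gene.

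Ratios did not overlap between groups in 7 of the 15 pairs (alanine, cysteine, isoleucine, leucine, methionine, threonine and tryptophan), each lower in OE, and were higher without overlap in 0. Over all ordered pairs of tested genes the ratio was lower without overlap in 11.1%, and since these pairs take in the contrast that chose the members, no more is read from the count. The methionine pair had log2 ratios of 5.37, 5.38 and 4.99 in EV and 4.63, 4.56 and 4.38 in OE. Tyrosine and asparagine, whose cytosolic enzymes fell, were not among the 7. For tyrosine the ratio of EV3 (2.74) lay below that of OE replicate 1 (2.83), and for asparagine EV3 (2.85) lay below OE replicate 1 (2.95).

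**Figure D2:**
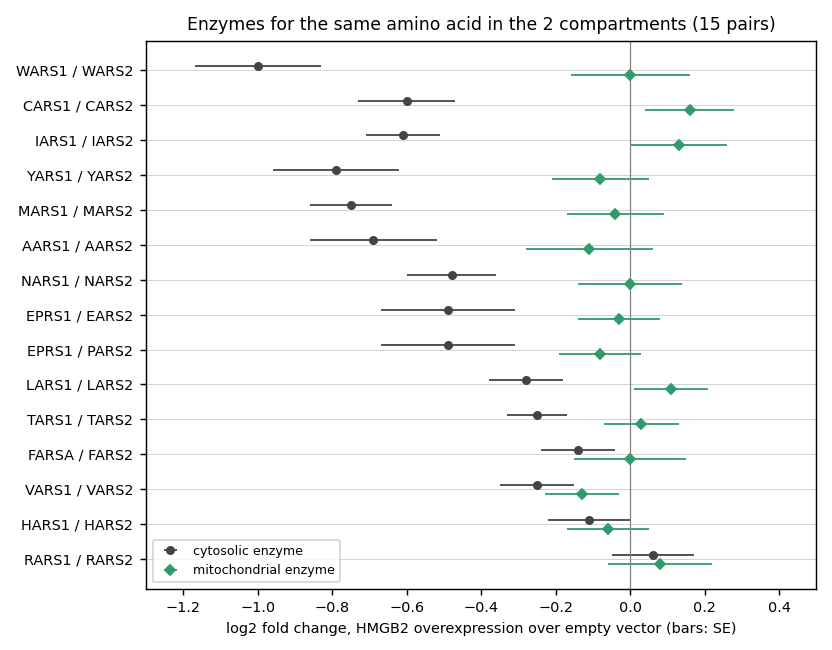
Log2 fold change, OE against EV, of the cytosolic and the mitochondrial gene for each amino acid, with standard errors as bars. Tryptophan, cysteine and isoleucine show the widest gaps (differences of -0.99, -0.77 and -0.75), and arginine the narrowest (-0.02).

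The called genes are spread over the genome. In hg38 (GENCODE annotation, whole gene spans) AARS1 lies at chr16:70251983-70289707, CARS1 at chr11:3000922-3057613, GARS1 at chr7:30580533-30634033, IARS1 at chr9:92210207-92293854 and MARS1 at chr12:57475445-57517569. NARS1 lies at chr18:57600656-57622213, SARS1 at chr1:109213918-109238182, WARS1 at chr14:100333790-100376805 and YARS1 at chr1:32775237-32818031. SARS1 and YARS1 share chromosome 1 but lie far apart.

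As ATF4 is known to induce cytosolic synthetases, the promoters of the members were searched for the 8 letters TGATGNAA on both strands, a core of the composite site bound by ATF4 with C/EBP partners. Windows ran from 250 bases before to 50 bases after each RefSeq start (GRCh38.p14). The 30 bases around the match are printed below for each member that held it, 5′ to 3′ on the strand of the gene, with the match in capitals.
AARS1: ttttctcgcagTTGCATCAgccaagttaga
CARS1: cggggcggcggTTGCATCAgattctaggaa
GARS1: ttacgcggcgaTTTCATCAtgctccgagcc
IARS1: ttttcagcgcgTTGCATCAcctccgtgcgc
MARS1: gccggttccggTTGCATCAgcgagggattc
NARS1: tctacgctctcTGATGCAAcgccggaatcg
TARS1: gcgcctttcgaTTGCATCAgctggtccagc
YARS2: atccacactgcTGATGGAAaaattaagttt
The windows lie at chr16:70289675-70289704 (AARS1, minus strand), chr11:3057407-3057436 (CARS1, minus), chr7:30594834-30594863 (GARS1, plus), chr9:92293692-92293721 (IARS1, minus), chr12:57488053-57488082 (MARS1, plus), chr18:57621804-57621833 (NARS1, minus), chr5:33440956-33440985 (TARS1, plus) and chr12:32756076-32756105 (YARS2, minus). All but GARS1 and YARS2 share the same 8 letters, read as TTGCATCA or, on the other strand, TGATGCAA.

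Of the 19 cytosolic members with a RefSeq promoter entry, 7 held the letters, and 6 of these 7 fell in OE. The exception was TARS1, which missed the threshold. Of the 12 cytosolic members without a match, 2 fell (SARS1 and WARS1). Of the mitochondrial members YARS2 alone among those with an entry held a match, and it was not called. No entry was given for LARS1, TARS3, VARS1, YARS1, AARS2 or VARS2. Counted by window, 25.9% of 27 cytosolic windows and 5.56% of 18 mitochondrial windows held the letters, against 3.62% of all 35116 windows. Among all tested genes with an entry, 9.79% of the 388 with a match were called lower, and 2.67% of the 12379 without. These shares include the members themselves and the genes of the ATF4 programme described below, both chosen with results of these data known. Of the programme genes with an entry, 5 of the 6 with a match fell, but so did 10 of the 15 without. Of the 33 programme windows, 18.2% held the letters. The longer form TGATGCAAT occurred in 0.236% of all windows and, among members, in TARS1 alone. The members were chosen by these same fold changes, so no more is read from their split by match. The same holds for the programme list, written with earlier results of these data known. A match is a string of letters in a window, and binding was not measured. Whether ATF4 played a part was not tested.

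ATF4 and the genes it is known to induce were lower as well. The list, written by hand from textbook members of the programme with earlier results of these data known, held 26 genes. Of these 19 fell and 0 rose (2.64% of all genes tested were called lower). The median log2 fold change was -0.63 (from -2.38 to 0.04). The counts are therefore a description, and a part of ATF4 in the falls was not tested. Without EV3, 22 fell, where 9.46% of all genes did. ATF4 itself had 32208, 29993 and 31058 normalized counts in EV and 23320, 24068 and 22124 in OE, a non-overlapping fall of 0.42 (SE 0.09, adjusted p = 0.000194 by DESeq2). The ATF4 call was lost without EV replicate 1 (adjusted p = 0.0557) or OE replicate 1 (0.0579). The asparagine synthetase gene ASNS, a standard readout of ATF4, had 173, 137 and 146 in EV and 64.5, 62.1 and 49.5 in OE, with a log2 fold change of -1.37 (SE 0.23, adjusted p = 8.83e-07 by DESeq2). TRIB3, a pseudokinase that feeds back on ATF4, had 29430, 25257 and 28817 in EV and 13628, 11905 and 9495 in OE, with a log2 fold change of -1.25 (SE 0.15, adjusted p = 1.86e-14 by DESeq2). In none of these 3 genes did the groups overlap.

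Other called genes of the programme covered each of its branches. Amino acid synthesis and one-carbon enzymes fell, among them PHGDH (-1.07), MTHFD2 (-0.83), SHMT2 (-0.68) and PSAT1 (-0.61), as did the transporter subunits SLC7A5 (-0.98), SLC3A2 (-0.83) and SLC7A11 (-0.39). Stress regulators that fell included NUPR1 (-2.38), PPP1R15A (-1.23), DDIT3 (-0.76), SESN2 (-0.76), CEBPG (-0.66), CEBPB (-0.64), ATF3 (-0.57), CHAC1 (-0.53) and EIF4EBP1 (-0.44), where all values are log2 fold changes. The calls of CEBPB (adjusted p = 0.0721) and SLC7A11 (0.0931) were lost with edgeR, and those of CEBPB, SLC7A11, EIF4EBP1 and ATF3 without at least 1 of the libraries. DDIT3 overlaps MARS1 on the opposite strand, and the count column kept 23.2% of DDIT3 and 95.9% of MARS1 reads. The genes STC2, DDIT4, PSPH, SLC7A1, ATF5, SLC38A2 and VLDLR were not called.

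**Figure D3:**
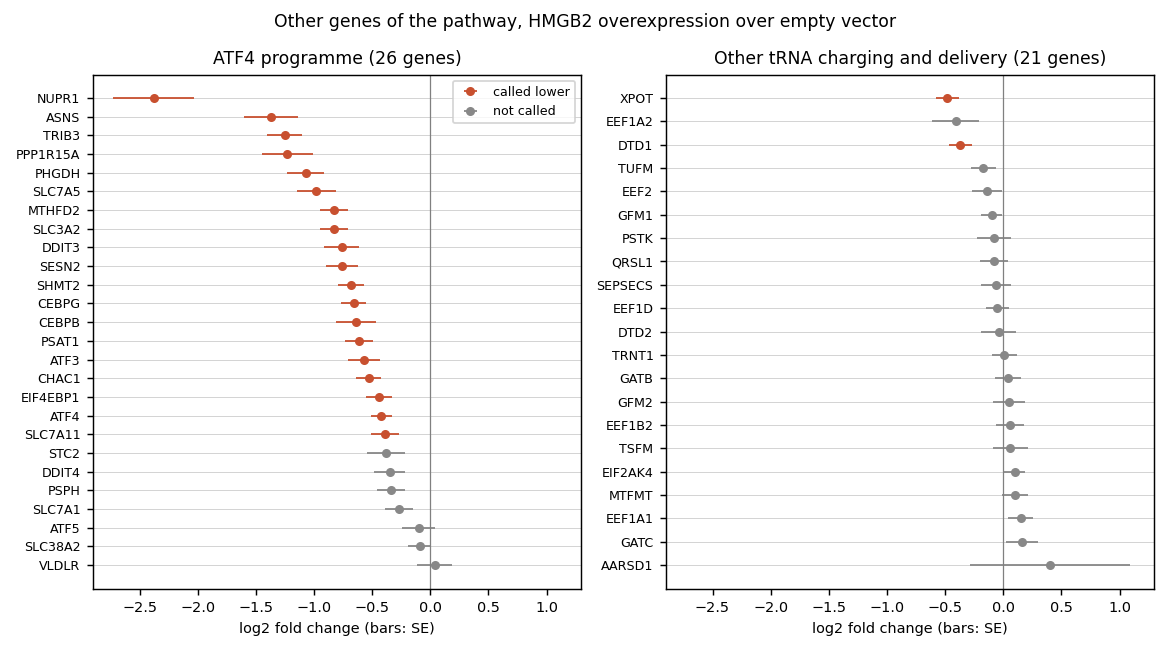
Log2 fold change, OE over EV, of the 26 genes of the ATF4 programme (left) and of 21 other genes of tRNA charging and delivery (right), with bars for the standard error and called genes in red. The ATF4 programme lies mostly below 0, from NUPR1 at -2.38 upward, while the tRNA genes centre near 0 with XPOT and DTD1 as the called genes.

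Other genes that act on tRNA charging or deliver charged tRNA were listed too. Of 22 listed genes 21 were tested, 2 fell and 0 rose. Over all genes tested 2.64% were called lower and 2.29% higher, and no more is read from these counts. The listed genes had 11 negative and 10 positive fold changes, with a median of -0.04. XPOT, the exporter of tRNA from the nucleus, had 29260, 29541 and 32878 in EV and 23294, 20740 and 21750 in OE, a fall of 0.48 without overlap (SE 0.10, adjusted p = 0.000197 by DESeq2). DTD1, which removes wrongly charged D-amino acids from tRNA, had 7042, 6163 and 7130 in EV and 5078, 5217 and 5490 in OE, and fell by 0.37 (SE 0.10, adjusted p = 0.0146 by DESeq2). The DTD1 call held in 9 of 14 alternatives and was lost with edgeR (adjusted p = 0.0753) and without EV replicate 1 or any 1 of the OE libraries (0.0908 to 0.315). EIF2AK4, the sensor kinase GCN2, had 4830, 5062 and 4720 in EV and 5202, 5480 and 4989 in OE, with overlap and a log2 fold change of 0.10 (SE 0.09, adjusted p = 0.741 by DESeq2). EEF1G was listed at 0 in every library, and the separate strand columns held no reads for it either. The reason was not tested, and its absence cannot be read from these counts.

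Levels between genes were compared as mean normalized counts per kilobase of annotated exon (union of all transcripts). The cytosolic range ran from FARSA at 12038 to TARS3 at 55.9, and the mitochondrial range from IARS2 at 4056 to NARS2 at 133, with SARS2 at 0.998 but undercounted as described. FARSA had 32136, 28745 and 31193 normalized counts in EV and 26605, 29007 and 28121 in OE, which overlapped, so the cytosolic gene with the highest level per length was not among those that fell. NARS2 had 2070, 1977 and 2502 in EV and 1991, 2104 and 2437 in OE, also with overlap. FARSA, TARS3 and IARS2 kept these places when the length of the longest transcript or of the MANE Select transcript was used. The lowest measured mitochondrial place depended on the length, going to LARS2 (192) by the longest transcript and to AARS2 (216) by MANE Select.

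Over the 14 alternative settings run, the log2 fold change of WARS1 ranged from -1.13 to -0.86, that of SARS1 from -1.02 to -0.82, that of MARS1 from -0.82 to -0.68 and that of NARS1 from -0.56 to -0.43. With the exception of the AARS1 and NARS1 calls named above, each of the 9 stayed called under each setting.

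**Figure D4:**
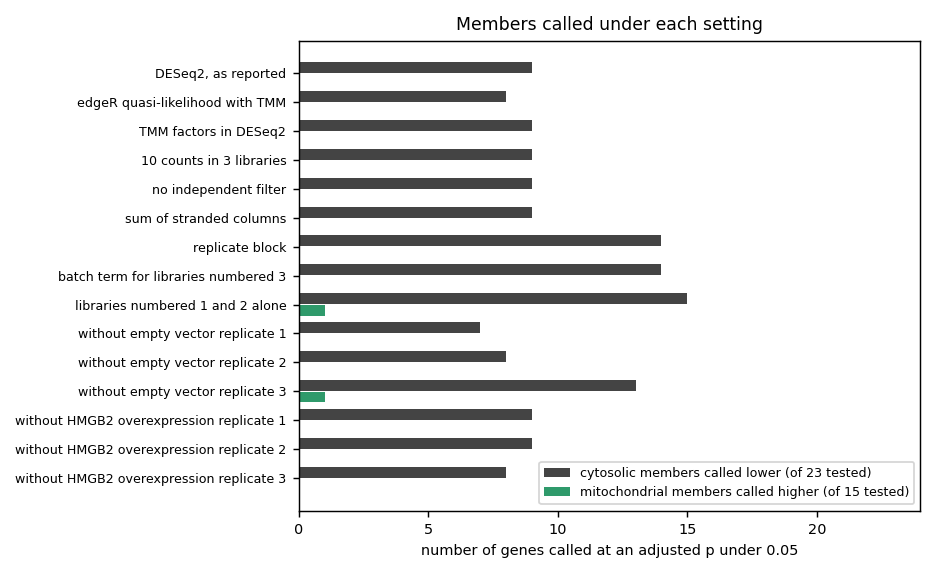
Bars give the number of cytosolic members called lower and of mitochondrial members called higher under each processing setting. The cytosolic count was 9 in the reported fit and 13 without EV3, and the mitochondrial count was 0 or 1 throughout.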

How the data were processed

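Counts were taken as deposited. The authors trimmed reads with Trimmomatic, aligned them to hg38 with STAR and deposited raw whole-number counts per gene, without normalization. The STAR version and the annotation release are not given in the sources used here. Reads in genes on either strand were used, and reads shared by overlapping genes are ambiguous there (10.7% to 11.4% of reads). The 4 summary lines were left out, and 0 columns of other samples were used. Symbols came from GENCODE 44 (57532 of 58302 IDs matched).

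Groups came from the sample labels, and HMGB2 overexpression was compared with empty vector (3 libraries each) by DESeq2 1.42.0 (R 4.3.3, default Wald test on group, unshrunken fold changes, Benjamini-Hochberg over 18836 genes). Alternatives were edgeR 4.0.16, TMM factors, 10 counts in 3 libraries, both strand columns summed, no independent filter, a replicate block, a batch term for libraries numbered 3, libraries 1 and 2 alone, each library left out, other transcript lengths and a longer motif. The MANE Select length was added after seeing the data. The DESeq2 fit alone was tested on simulated data, with known folds, a fixed dispersion and no outlying library.

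The members and lists were chosen with earlier results of these data known. Values per library are given for called members, the 3 largest and 3 smallest fold changes of each compartment, the highest and lowest level per length, HMGB2, and called genes of the lists by fold change, with ATF4, ASNS, XPOT and EIF2AK4 in any case. Values for TRIB3, DTD1, EPRS1, LARS1, KARS1 and TARS1 were added after they had been seen. Some tRNA charging genes are not reported here.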

Additional observations from a re-analysis of the deposited data

Results flagged for a closer look

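SARS2 was flagged because it carried signal in columns that no comparison of the members uses. The separate strand columns assigned 1509 reads to it over the 6 libraries, while the column for either strand held between 1 and 5 in each. In the strand columns the groups overlapped, with 202 to 290 reads in EV and 252 to 269 in OE.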

How the results depend on the processing

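Over the alternatives run, the median log2 fold change of cytosolic members stayed between -0.29 and -0.25 and that of mitochondrial members between -0.05 and 0.07. Genes called over the whole table, 930 in the reported fit, numbered 470 with edgeR, 1826 with the replicate block, 2733 with a batch term for libraries numbered 3, 2621 in libraries 1 and 2 alone, and 363 (without EV replicate 1) to 2854 (without EV3) with 1 library left out. Cytosolic members called, 9 in the reported fit, numbered 14 with the replicate block, 14 with the batch term, 15 in libraries 1 and 2 alone and 7 to 13 with 1 library left out. Mitochondrial members called numbered 1 (IARS2) in libraries 1 and 2 alone, and 0 to 1 with 1 library left out. Other tRNA charging and delivery genes called numbered 1 with edgeR, 4 with the batch term, 5 in libraries 1 and 2 alone and 1 to 5 with 1 library left out. The ATF4 programme gave 15 to 23 calls. The cause of these shifts was not tested.

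The replicate block does not rest on a known pairing, since same-numbered libraries deviated together with r = 0.0906, 0.142 and 0.349, and 3 of 6 libraries correlated best with their own number.

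Reversals of sign were seen only in uncalled members near 0, and their cause was not tested. In libraries 1 and 2 alone TARS3 was at -0.05, MARS2 at 0.08, NARS2 at 0.02 and WARS2 at 0.12. WARS2 was at 0.01 with the replicate block and the batch term, and FARS2 at 0.00 with edgeR, TMM factors and the stranded sum. With 1 library left out, RARS1 ranged from 0.00 to 0.11, TARS3 from -0.11 to 0.14, EEF1E1 from -0.28 to 0.03, EARS2 from -0.09 to 0.00, FARS2 from -0.09 to 0.15, MARS2 from -0.12 to 0.07, NARS2 from -0.09 to 0.11, RARS2 from -0.03 to 0.19, TARS2 from -0.01 to 0.05, WARS2 from -0.09 to 0.17 and YARS2 from -0.15 to 0.04. The longer motif left 1 member in place of 8. Depth limits TARS3 and EEF1E1, whose counts were the lowest apart from SARS2, and SARS2 was undercounted in the column used.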
